A study of Mus musculus with 2 samples.

Results

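The kallikrein-related peptidases Klk5 to Klk14 were described in single-cell RNA sequencing data of the mouse anorectal junction. The 10 members were taken by name from a list, which was chosen with earlier results of these data known. All 10 were found in both libraries, among 32933 genes over the series, 31054 of them in the normal library and 32285 in the wounded library. They were followed across 12 groups of cells, which were the 4 deposited clusters of the normal library (Anal Canal, Basal, Suprabasal and Rectum), the 6 deposited clusters of the wounded library (Basal, Suprabasal, Regeneration, Wound_Stress, Hybrid and Rectum) and, in each library, the cells that passed the study's filters but that the deposited tables did not hold.

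Both libraries came from K17CreERT2;R26RGFP mice of strain C57/BL6J, in which a tamoxifen-inducible Cre recombinase driven by the keratin 17 promoter switches on GFP, and both received 2 tamoxifen injections. The normal library was unwounded, and the wounded library was made 1 week after an EDTA wound of the anorectal region, where the stratified squamous anal canal meets the columnar rectum at a transition zone. Tissue of at least 5 mice was pooled, and Epcam-positive epithelial cells were sorted away from blood, endothelial and fibroblast cells before 10x Genomics 3′ sequencing. Each condition was 1 library of pooled mice, so there were no replicates, no test between conditions was possible, and every interval below covers counting error alone.

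Kallikrein-related peptidases are secreted serine proteases made as inactive precursors by stratified and glandular epithelia. In the upper epidermis Klk5 activates itself, Klk7 and Klk14, and these enzymes cleave the corneodesmosomes that hold cornified cells together, so that the surface is shed. Lympho-epithelial Kazal-type inhibitor, the product of Spink5, holds this cascade in check, and its loss gives Netherton syndrome.

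In GRCm38 the 10 genes lie side by side on the plus strand of chromosome 7, within 161 kb (chr7:43690418-43851181), in the order Klk14, Klk13, Klk12, Klk11, Klk10, Klk9, Klk8, Klk7, Klk6 and Klk5. Gene models of GENCODE place Klk14 (ENSMUSG00000044737) at chr7:43690418-43695536, Klk13 (ENSMUSG00000054046) at chr7:43712567-43727534, Klk10 (ENSMUSG00000030693) at chr7:43781035-43785410 and Klk8 (ENSMUSG00000064023) at chr7:43797577-43803826. The 250 bases before the RefSeq start of these 4 genes (GRCm38.p6, plus strand) are shown for how their normal Suprabasal UMIs were spread. Those of Klk10, Klk13 and Klk14 lay mostly in a few cells. Those of Klk8, which lies beside Klk9 and Klk7, were spread more evenly. Capitals mark the letters CACCC (a core of Krüppel-like factor sites) and AGGAAG (a core of ETS factor sites), each on either strand, where the reverse complements read GGGTG and CTTCCT.
Klk14, chr7:43690168-43690417: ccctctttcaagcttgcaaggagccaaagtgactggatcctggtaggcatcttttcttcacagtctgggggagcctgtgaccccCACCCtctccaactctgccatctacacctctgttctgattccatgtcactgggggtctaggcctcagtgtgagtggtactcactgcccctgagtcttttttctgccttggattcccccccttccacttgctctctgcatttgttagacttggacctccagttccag
Klk13, chr7:43712317-43712566: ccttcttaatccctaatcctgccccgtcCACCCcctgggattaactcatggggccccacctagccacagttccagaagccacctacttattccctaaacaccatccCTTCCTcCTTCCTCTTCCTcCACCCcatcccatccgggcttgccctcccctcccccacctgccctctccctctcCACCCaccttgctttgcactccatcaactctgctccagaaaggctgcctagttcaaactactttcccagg
Klk10, chr7:43780804-43781053: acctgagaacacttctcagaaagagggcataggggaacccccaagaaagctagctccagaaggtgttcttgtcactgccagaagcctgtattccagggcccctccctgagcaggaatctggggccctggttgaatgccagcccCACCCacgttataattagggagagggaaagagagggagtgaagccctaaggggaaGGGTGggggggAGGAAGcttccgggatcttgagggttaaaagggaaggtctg
Klk8, chr7:43797327-43797576: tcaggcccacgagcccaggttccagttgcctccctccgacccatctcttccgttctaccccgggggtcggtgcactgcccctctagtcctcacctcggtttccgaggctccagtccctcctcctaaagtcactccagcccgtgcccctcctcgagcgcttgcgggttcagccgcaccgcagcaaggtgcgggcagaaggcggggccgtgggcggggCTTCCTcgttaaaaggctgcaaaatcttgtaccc
The letters CACCC occur in 9 of the 12 promoters that RefSeq gives for the members, in 1 promoter or more of every member but Klk8, and in 52.0% of 32851 promoters of the same length in the genome. AGGAAG occurs in 7 of the 12, belonging to Klk6, Klk8, Klk10, Klk11 and Klk13, and in 29.5% of all promoters. The AP-1 letters TGAGTCA (4.46% of all promoters) and the TATA letters TATAAA (12.4%) occur in 0 of the 12. A match is a description of letters, and the capitals were chosen after seeing which letters occur.

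The normal library held 2564 barcodes, of which 1548 passed the filters and 939 were in the deposited table, and the wounded library held 17216, 5225 and 4147. A total of 1 barcode was shared by the libraries, and 0 were shared among the cells that passed the filters. The median number of UMIs (unique molecular identifiers, each counting 1 captured RNA molecule) per cell lay between 8438 and 12616 in all deposited clusters but Hybrid, where it was 2390. Levels are given as UMIs of a gene scaled to a total of 1000000 UMIs in the group (CPM). The libraries were counted at 3′ ends, so CPM were not divided by transcript length.

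Against their names, the wounded cells called Basal carried the differentiation keratins Krt1 and Krt10 at 2473 and 1987 CPM, near the 2286 and 2228 CPM of the normal Anal Canal cells, while the normal cells called Basal had 17.4 and 48.4 CPM. The wounded cells called Suprabasal were of more than 1 kind. When all filter-passing cells were clustered again without the members among the variable genes, 438 of the 1032 fell in a cluster with 90457 CPM of Cst6, a cysteine protease inhibitor of cornifying epithelium, and 525 fell in another with 1182 CPM of Cst6 and 2169 CPM of the basal keratin Krt15. Of the 187 normal Suprabasal cells, 169 fell in a single cluster with 95978 CPM of Cst6. The 257 normal Basal cells were mixed as well, and summed to 890 CPM of enteroendocrine markers. A total of 26 of them fell in a cluster with anal gland markers, with 4.76 CPM of all members and 0 of Klk8. Another 219 fell in a cluster with 3411 CPM of Krt15, 140 CPM of all members and 120 CPM of Klk8. The part of this mixture in the comparisons with normal Basal cells was not tested. Some comparisons that rest on these names are therefore also given for the Cst6-high cells alone or against the Anal Canal cells, both of them chosen after seeing the data. The other comparisons keep the mixed clusters.

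The Suprabasal cells held most of the kallikrein RNA in both libraries. The 10 members together reached 1377 CPM in normal Suprabasal cells, against 199 CPM in Anal Canal, 113 CPM in Basal and 7.10 CPM in Rectum. After wounding they reached 446 CPM in Suprabasal cells, 181 CPM in Basal, 31.7 CPM in Hybrid, 10.7 CPM in Rectum, 4.08 CPM in Regeneration and 4.02 CPM in Wound_Stress. Over all 12 groups, 4065 UMIs were of Klk10, 2574 of Klk8, 2262 of Klk13, 671 of Klk7, 525 of Klk14, 508 of Klk11, 181 of Klk12, 67 of Klk6, 42 of Klk5 and 35 of Klk9. These UMI totals set how firmly each member can be described. Because the UMIs of a group were summed, fewer cells with a gene and less of its RNA in each cell cannot be told apart in CPM.

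**Figure D1:**
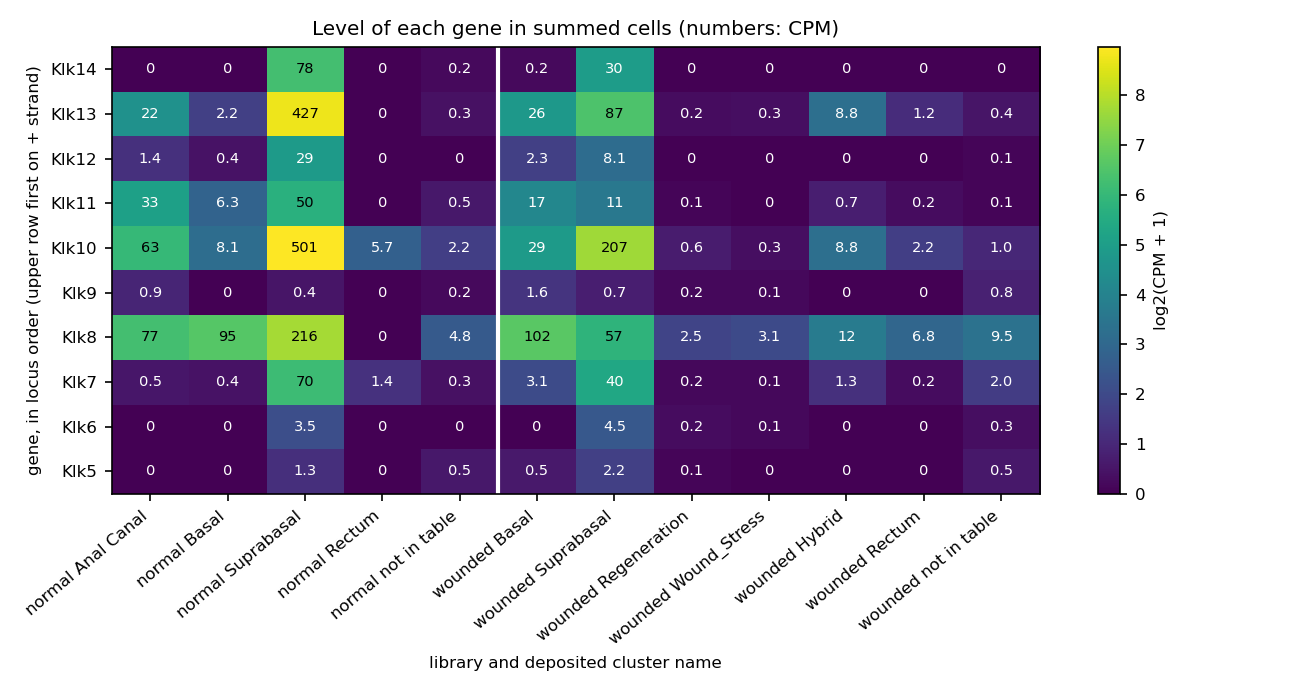
CPM of the 10 members in the 12 groups of cells of the normal and wounded libraries. Suprabasal cells have the highest level of Klk10, Klk13, Klk14, Klk7 and Klk12 in both libraries. For Klk8 the wounded Basal cells (102 CPM) exceed the wounded Suprabasal cells (56.5 CPM).

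Of the proteases that shed the epidermal surface, Klk7, the chymotrypsin-like enzyme of the stratum corneum, was found at 69.7 CPM (95% interval 59.3 to 81.4) in normal and 39.6 CPM (36.0 to 43.4) in wounded Suprabasal cells. Its level was 3.14 CPM in wounded Basal cells, 2.02 CPM in the wounded cells outside the table and at most 1.42 CPM elsewhere. Klk14, a trypsin-like enzyme, reached 78.0 CPM (66.9 to 90.3) in normal and 29.8 CPM (26.7 to 33.1) in wounded Suprabasal cells, with 0 UMIs in normal Anal Canal, Basal and Rectum and at most 1 UMI in any other group. Both were thus Suprabasal genes in both libraries. Klk5, which starts the epidermal cascade, was scarce everywhere, with 2.25 CPM (26 UMIs) in wounded and 1.31 CPM (3 UMIs) in normal Suprabasal cells and no more than 0.523 CPM elsewhere, and neighbours in the order of its levels did not differ beyond their intervals.

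Klk10 and Klk13 carried the largest Suprabasal signal. Klk10, first described as a gene of normal epithelial cells that is lost in tumour lines, reached 501 CPM (473 to 531) in normal and 207 CPM (199 to 216) in wounded Suprabasal cells, followed by normal Anal Canal (63.0 CPM, 55.8 to 70.9) and wounded Basal cells (28.7 CPM, 24.5 to 33.5). These 4 levels differed from each other beyond their intervals, and those of the groups from Hybrid (8.77 CPM) to Wound_Stress (0.268 CPM) followed below. Klk13, a trypsin-like enzyme, reached 427 CPM (400 to 454) in normal and 86.7 CPM (81.4 to 92.2) in wounded Suprabasal cells. In wounded Basal (26.3 CPM) and normal Anal Canal cells (22.4 CPM) its levels lay side by side with overlapping intervals, and in normal Basal cells it was at 2.22 CPM. Klk12, another trypsin-like member, repeated this order at a lower level, with 28.9 CPM (22.4 to 36.8) in normal and 8.12 CPM (6.56 to 9.94) in wounded Suprabasal cells, 2.26 CPM in wounded Basal and 1.37 CPM in normal Anal Canal cells.

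Klk8 and Klk11 were spread more widely over the stratified cells. Klk8, also called neuropsin and known from hippocampus and epidermis, stood at 216 CPM (198 to 236) in normal Suprabasal, 102 CPM (93.8 to 111) in wounded Basal, 95.4 CPM (84.1 to 108) in normal Basal, 77.4 CPM (69.4 to 86.1) in normal Anal Canal and 56.5 CPM (52.3 to 61.0) in wounded Suprabasal cells. The 3 middle values formed a run in which neighbours overlapped, with normal Suprabasal above and wounded Suprabasal below it. Of the 305 member UMIs in normal Basal cells, 258 were of Klk8. Klk11, a trypsin-like enzyme also called hippostasin, stood at 50.4 CPM (41.6 to 60.5) in normal Suprabasal, 33.3 CPM (28.1 to 39.2) in normal Anal Canal, 16.7 CPM (13.5 to 20.4) in wounded Basal, 11 CPM (9.15 to 13.1) in wounded Suprabasal and 6.28 CPM in normal Basal cells. For Klk11 the Anal Canal level was thus nearer to the Suprabasal level than it was for Klk10, Klk12 or Klk13.

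The last 2 members were near the limit of detection. Klk6, a trypsin-like enzyme known from brain and skin, was at 4.49 CPM (52 UMIs) in wounded and 3.51 CPM (8 UMIs) in normal Suprabasal cells, and at most 0.253 CPM elsewhere. Klk9, a little studied chymotrypsin-like member, did not exceed 1.57 CPM (9 UMIs) in any group, with 1 UMI at most in any cell. Its gene model ends 819 bases before that of Klk8 and starts 6480 bases after that of Klk10, so the gene with the lowest UMI total lay between those with the 2 highest.

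To compare groups, UMIs were summed and the log2 ratio of CPM was taken with an exact binomial 95% interval. A gene entered if both groups together held at least 20 UMIs, and it was called at a ratio of at least 2-fold. A group with 0 UMIs was set at 3 UMIs, which gives a bound. A gene can reach the minimum through the group in which it is high, so the counts of members describe these groups and support nothing by themselves.

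Between the layers of the normal transition zone, the members were higher in Suprabasal than in Basal cells. A total of 7 of the 10 members passed the minimum, and 7 of these 7 were at least 2-fold higher, against 6.57% of 9682 genes (17.1% lower). The log2 ratio was 7.59 (6.46 to 9.04) for Klk13, 5.95 (5.34 to 6.63) for Klk10, 3.0 (2.26 to 3.83) for Klk11 and 1.18 (0.96 to 1.41) for Klk8. Klk7 and Klk12 rested on 1 UMI each in Basal cells, with ratios of 7.56 (5.06 to 12.87) and 6.29 (3.76 to 11.61), and Klk14, with 0 UMIs there, was at least 70.3-fold higher. The ratios were taken again without the 5 richest cells of each cluster, chosen after seeing the data. The log2 ratio was then 6.44 for Klk13, 5.47 for Klk12, 4.1 for Klk10, 2.71 for Klk11 and 1.44 for Klk8. Klk7 at 5.23 and Klk14 at 2.77 were bounds, because no Basal UMI of either was left. All 7 stayed past 2-fold, but the ratios of Klk10 and Klk13 were more than 2-fold smaller than with all cells. For Klk7 and Klk14 a lower bound does not show whether the ratio itself was smaller. With all cells, the median log2 ratio of these members was 6.14, and that of all genes tested was -0.29. Anal Canal cells, which are the squamous cells outside the transition zone, lay between both layers for Klk10, Klk11 and Klk13. Against normal Basal cells, where 4 members passed the minimum and 3 were called higher (8.73% of 10571 genes, with 10.2% lower), Klk13 was higher by 3.33 (2.16 to 4.81) on the log2 scale, Klk10 by 2.95 (2.33 to 3.65) and Klk11 by 2.41 (1.68 to 3.23), while Klk8 had a log2 ratio of -0.30 (-0.54 to -0.06). Against normal Anal Canal cells, 6 of the 7 members tested in Suprabasal cells were called higher (8.48% of 10278 genes, with 19.8% lower), with Klk11 the exception at 0.60 (0.23 to 0.96).

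Set against normal Basal and Suprabasal cells together, 5 of the 7 members tested were called lower in Anal Canal cells (9.97% of 11036 genes) and 0 higher (8.87%). The members not called were Klk8, with a log2 ratio of -0.96 (-1.15 to -0.78), and Klk11, with 0.33 (-0.02 to 0.68). Of the members tested, Klk11 was the one whose interval held 0.

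Columnar Rectum cells, which do not cornify, had few UMIs of any member. In the normal library, 6 of 7 members tested were called higher in the stratified cells than in Rectum (14.9% of 11406 genes), and in the wounded library 8 of 10 (15.7% of 14012 genes). The normal Rectum held 0 UMIs of Klk8, which was at least 27.3-fold higher in the stratified cells, and 4 UMIs of Klk10. The wounded Rectum held 28 UMIs of Klk8 in 10 of 397 cells, of which 9 were in 1 cell, and 9 UMIs of Klk10. The family member of the rectum was instead Klk1, tissue kallikrein, at 589 CPM in normal and 1198 CPM in wounded Rectum and at most 23.6 CPM in any other group. Of the other 15 kallikrein genes in the annotation, none exceeded 5.60 CPM, the level of Klk15 in wounded Rectum.

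After wounding, the Suprabasal cluster as a whole again stood above Basal cells for most members but not for Klk8 or Klk11. All members but Klk9 passed the minimum, and 7 of these 9 were called higher in wounded Suprabasal than in wounded Basal cells (9.85% of 12291 genes). The log2 ratio was 7.42 (4.93 to 12.73) for Klk14, resting on 1 UMI in Basal cells, 3.66 (2.98 to 4.43) for Klk7, 2.85 (2.62 to 3.09) for Klk10 and 1.72 (1.47 to 1.98) for Klk13. For Klk8 it was -0.85 (-1.01 to -0.69) and for Klk11 -0.61 (-1.0 to -0.21), neither past 2-fold and both opposite in sign to the normal library. For Klk11 that sign depended on which Suprabasal cells were compared. The 438 Cst6-high Suprabasal cells alone, chosen after seeing the data, stood at 17.3 CPM of Klk11 against 16.7 CPM in wounded Basal cells, a log2 ratio of 0.05 (-0.35 to 0.46), while the 525 Krt15-high cells stood at 2.26 CPM. Klk8 was lower than in Basal cells in both kinds, by a log2 ratio of -0.73 (-0.91 to -0.54) in the Cst6-high and -0.93 (-1.15 to -0.71) in the Krt15-high cells. Of the members called higher, Klk10 and Klk13 stood above Basal cells in the Cst6-high cells alone, at 3.62 and 2.49. In the Krt15-high cells they stood below, at -3.82 (-4.97 to -2.86) and -4.54 (-6.18 to -3.28). Klk12 had 0 UMIs there and 13 in Basal cells, while Klk7 stayed above Basal cells at 1.11 (0.22 to 2.04). In the normal library the Cst6-high cells had log2 ratios over Basal cells of 1.21 for Klk8 and 3.09 for Klk11. The wounded Basal cells compared here are the ones with Krt1 and Krt10, and the part of this makeup in the result was not tested. Against normal Anal Canal cells, which carry the same keratins, wounded Basal cells had log2 ratios of 0.40 (0.20 to 0.59) for Klk8, 0.23 (-0.14 to 0.62) for Klk13, -0.99 (-1.38 to -0.61) for Klk11 and -1.13 (-1.42 to -0.85) for Klk10. In that comparison 5 members passed the minimum, 1 (Klk7) was called higher against 10.2% of genes and 1 (Klk10) lower against 7.02%. Against the normal cells that share their name, the wounded Basal cells had 3 of 4 members tested called higher (15.6% of 11035 genes), namely Klk13 at 3.57, Klk10 at 1.82 and Klk11 at 1.41, whereas Klk8 stood at 0.10 (-0.12 to 0.31).

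**Figure D2:**
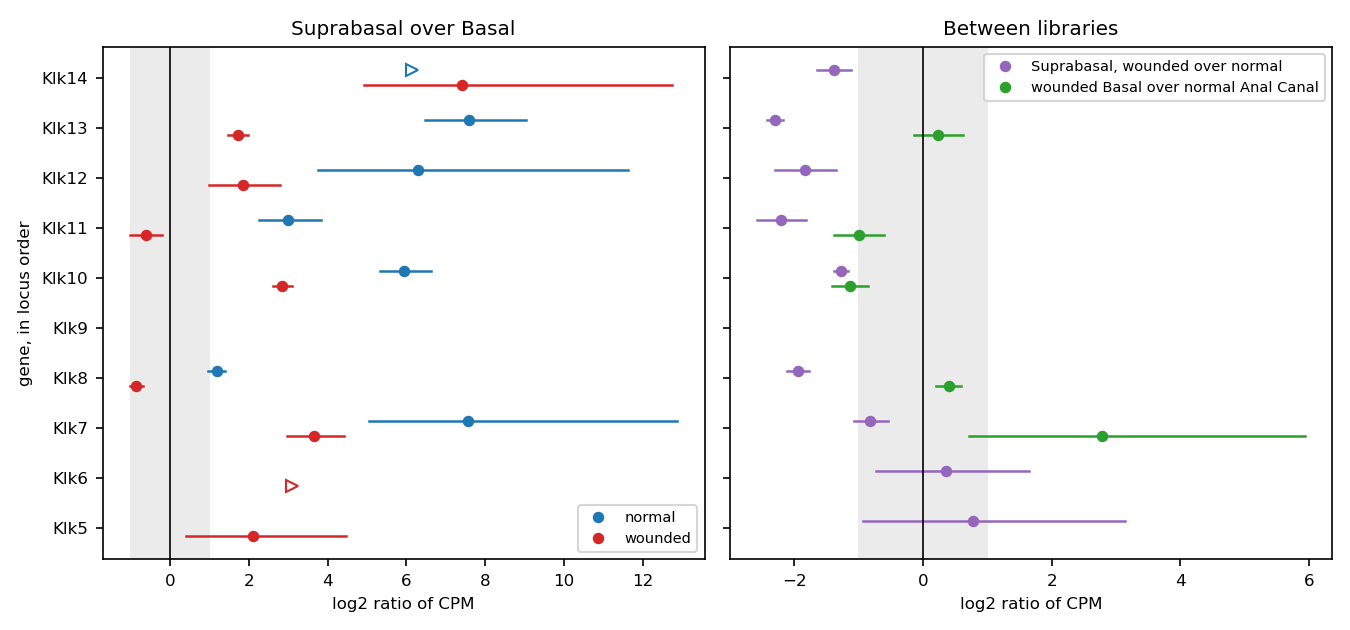
log2 ratio of CPM of the members in 4 comparisons, with 95% counting intervals as lines, bounds for a group without UMIs as open triangles and ratios under 2-fold inside the grey band. Klk8 and Klk11 lie right of 0 for Suprabasal over Basal cells in the normal library and left of 0 in the wounded library, where the value for Klk11 in Cst6-high cells alone was 0.05.

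Wounded Suprabasal cells had less kallikrein RNA than normal Suprabasal cells for 7 members. Of 9 members tested, 6 were called lower (5.63% of 11430 genes) and 0 higher (16.2%). The log2 ratio was -2.30 (-2.43 to -2.17) for Klk13, -2.20 (-2.57 to -1.82) for Klk11, -1.94 (-2.11 to -1.77) for Klk8, -1.83 (-2.30 to -1.36) for Klk12, -1.39 (-1.65 to -1.12) for Klk14 and -1.28 (-1.38 to -1.17) for Klk10. Klk7 stood at -0.82 (-1.08 to -0.55), while Klk6 at 0.36 (-0.73 to 1.64) and Klk5 at 0.77 (-0.93 to 3.14) had intervals on both sides of 0. The median of the members was -1.39 and that of all genes 0.14. The wounded cluster mixes Cst6-high and Krt15-high cells, and a few cells hold much of the signal in both libraries, so the comparison was repeated under both conditions. Within the Cst6-high cells alone, 438 wounded against 169 normal, the ratio was -1.84 (-2.03 to -1.64) for Klk8, -1.63 (-1.76 to -1.50) for Klk13, -1.63 (-2.02 to -1.24) for Klk11, -1.12 for Klk12, -0.76 for Klk14, -0.65 (-0.75 to -0.55) for Klk10 and -0.26 (-0.53 to 0.01) for Klk7. Klk5 (1.06, -0.68 to 3.45) and Klk6 (0.95, -0.13 to 2.24) had intervals on both sides of 0 there too. Without the 5 richest cells of each cluster the ratio was -2.24 for Klk12, -2.05 for Klk11, -1.84 for Klk8, -1.63 for Klk13, -1.44 for Klk14, -0.41 for Klk7, -0.33 for Klk10, 0.61 for Klk5 and 2.22 for Klk6. Of the 8 Klk6 UMIs in normal Suprabasal cells, 5 lay in 1 of the cells left out, so the value of 2.22 rests on few normal UMIs. That trim took 5 of 187 normal and 5 of 1032 wounded cells, so a larger share of the normal cluster was left out. The lower level in wounded cells thus stayed past 2-fold in both repeats for Klk8, Klk11, Klk12 and Klk13, that of Klk14 in 1 of them, and that of Klk10 in neither.

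When the normal side was Anal Canal and Suprabasal cells together, the direction depended on the member. Klk11 (-1.84) and Klk8 (-1.15) were called lower (13.2% of 12017 genes), Klk5 (2.32) and Klk6 (1.90) were called higher (12.6%), and Klk10 (-0.04, -0.14 to 0.05) was level. The normal Anal Canal cells held 0 UMIs of Klk5 and Klk6, and the normal Suprabasal cells 3 and 8. Against normal Suprabasal cells alone, the intervals of both genes held 0. The wounded side left out the wounded Basal cells with Krt1 and Krt10, so the sides were unlike mixtures.

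The wounded clusters called Regeneration and Wound_Stress had almost no kallikrein RNA. In their 1829 cells, with 20465292 UMIs in all, there were 56 UMIs of Klk8, 10 of Klk10, 5 of Klk13, 4 of Klk6, 3 each of Klk7 and Klk9, 1 each of Klk5 and Klk11, and 0 of Klk12 and Klk14. The 1605 wounded Basal and Suprabasal cells held 1239 UMIs of Klk8, 2562 of Klk10 and 1154 of Klk13 in 17314119. All 10 members passed the minimum and all 10 were called lower (12.8% of 13485 genes, with 8.43% higher), by a log2 ratio of -8.24 (-9.30 to -7.36) for Klk10, -8.09 (-9.72 to -6.86) for Klk13, -4.71 (-5.12 to -4.32) for Klk8 and -2.74 (-5.16 to -0.95) for Klk9. Klk14 was at least 136-fold lower and Klk12 at least 42.2-fold lower. Between Regeneration and Wound_Stress only Klk8 passed the minimum, with a log2 ratio of -0.28 (-1.09 to 0.55). It was not called, beside 6.47% of 12105 genes called higher and 4.23% called lower. Both clusters had higher sums of the 10 anal gland markers (4174 and 4061 CPM) than Basal (342 CPM) and Suprabasal cells (927 CPM) did, and their part in the result was not tested.

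Hybrid cells, the shallowest of the clusters, held 8.77 CPM of Klk10 and 12.1 CPM of Klk8. They carried markers of several cell types. The marker sums were 19190 CPM for enteroendocrine, 3222 CPM for stratified basal, 1617 CPM for inner root sheath and 1135 CPM for rectum cells. Wounded Rectum stood at 7937 CPM of rectum markers, and the part of this makeup in the ratios was not tested. Against wounded Rectum, 1 of the 2 members tested was called higher (13.4% of 11114 genes), Klk10 at 2.0 (0.66 to 3.41), with Klk8 at 0.83 (-0.11 to 1.74). The 53 Hybrid cells that joined the Krt15-high cluster on clustering again stood at 137 CPM for all members (18 UMIs) and 12254 CPM for Cst6, so the Hybrid signal was uneven. The Rectum clusters of both libraries had 1 member to compare, Klk8, with a log2 ratio of at least 0.68 for wounded over normal, a bound that does not reach 2-fold, so it was not called (11.6% of 10197 genes called higher and 6.41% lower).

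Within the Suprabasal clusters, a small number of cells carried the signal. In the normal library 10 of 187 cells held 77.2% of the 3142 member UMIs, and 81 cells (43.3%) held none. Among the wounded cells 10 of 1032 cells held 48.9% of 5164 UMIs, and 774 cells (75.0%) held none. The members differed in this respect. In normal Suprabasal cells the top 10 cells held 97.5% of Klk7, 96.6% of Klk14, 93.5% of Klk10, 92.4% of Klk12 and 88.2% of Klk13 UMIs, but 46.1% of Klk11 and 43.3% of Klk8 UMIs. The same shares in wounded Suprabasal cells were 99.7% for Klk14, 66.8% for Klk7, 61.7% for Klk10, 53.6% for Klk13, 31.5% for Klk11 and 21.4% for Klk8. Klk8 and Klk11 were thus the most evenly spread members in both libraries.

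The richest normal Suprabasal cell, with 31055 UMIs, held 223 UMIs of Klk13, 109 of Klk10, 51 of Klk14, 28 of Klk8, 12 of Klk12 and 7 of Klk11 but 0 of Klk7, along with 7662 of Cst6. The second held 237 of Klk10, 67 of Klk13, 50 of Klk7 and 14 of Klk14, and the third 161 of Klk10, 88 of Klk14, 85 of Klk13 and 0 of Klk7. The leading member therefore changed from cell to cell. The richest wounded Suprabasal cell, with 25302 UMIs, held 433 of Klk10, 285 of Klk14, 103 of Klk13 and 40 of Klk12. That cell alone held 82.6% of the 345 Klk14 UMIs of its cluster, and without it the cluster stood at 5.20 CPM of Klk14 in place of 29.8 CPM. Without the 5 richest cells the sum of all members was 645 CPM in normal and 288 CPM in wounded Suprabasal cells, and without the 10 richest 345 and 233 CPM. The same number of cells is a larger share of the 187 normal than of the 1032 wounded cells, so the libraries were not trimmed alike. The richest cell of each cluster had more UMIs than the cluster medians of 11543 and 10594. Scrublet at its default threshold called 2 normal and 1 wounded cells as doublets, so a caller gave no usable doublet list. The log2 ratios of normal Suprabasal over Basal cells were taken again without the cells with the highest Scrublet scores (93 and 344). They were 7.81 for Klk13, 6.36 for Klk10, 3.06 for Klk11 and 1.04 for Klk8. Bounds were 6.09 for Klk14, 5.92 for Klk7 and 4.66 for Klk12. Klk7 and Klk12 rest on 1 Basal UMI each with all cells and had none here. Their lower values therefore do not show a smaller ratio, and 7 of 7 stayed past 2-fold.

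**Figure D3:**
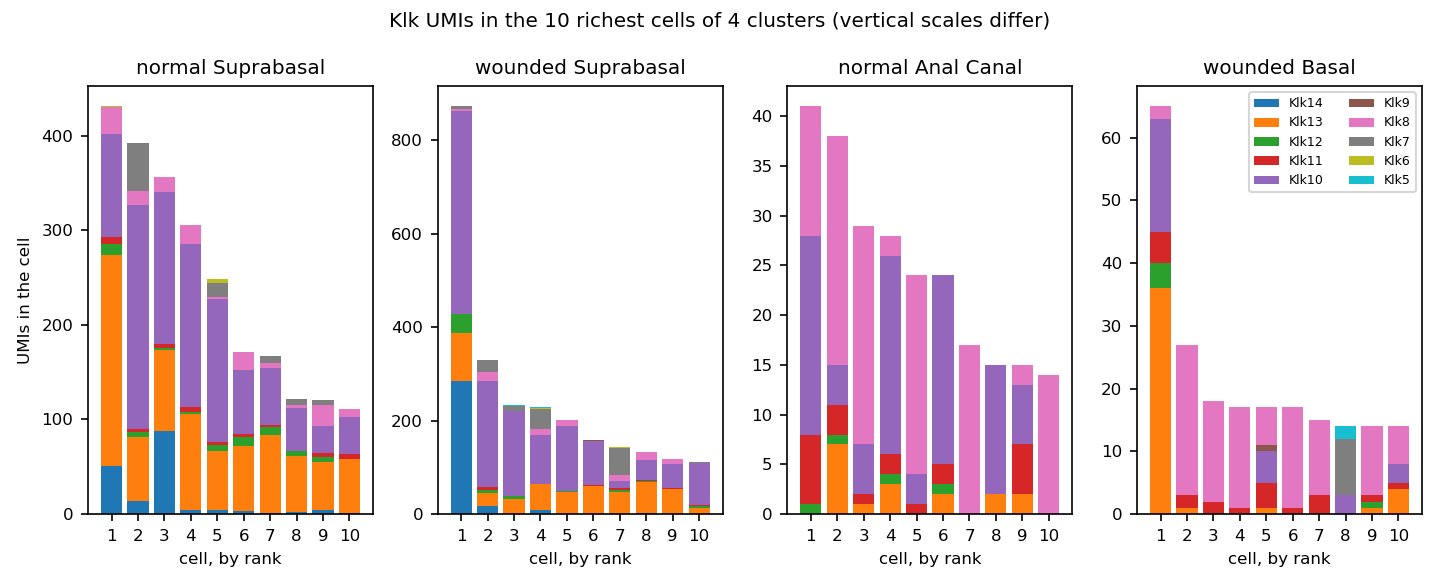
UMIs of each member in the cells with the most member UMIs of the normal Suprabasal, wounded Suprabasal, normal Anal Canal and wounded Basal clusters. The vertical scales differ. Klk10 and Klk13 make up most of the bars of the Suprabasal clusters, and the first wounded Suprabasal cell (872 member UMIs) holds most of the Klk14 of its cluster. Bars of the other clusters are often mainly Klk8, as in the second wounded Basal cell (24 UMIs).

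The other stratified groups had no such cells. The most member UMIs in 1 cell were 41 in normal Anal Canal, 65 in wounded Basal and 19 in normal Basal cells, where the top 10 cells held 28.1%, 20.9% and 41.6% of member UMIs. The 3 richest normal Basal cells held 19, 17 and 14 UMIs, all of Klk8. The richest normal Anal Canal cell held 20 UMIs of Klk10, 13 of Klk8 and 7 of Klk11, with 683 of Krt10, and the second 23 of Klk8 and 7 of Klk13. The richest wounded Basal cell was of another kind, with 36 UMIs of Klk13, 18 of Klk10 and 78 of Spink5, while the second had 24 of Klk8, 0 of Klk10 and 0 of Spink5.

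To count cells at equal depth, each cell was cut down at random to 2000 UMIs, without the cells of lower depth. After this thinning 31.1% of 183 normal Suprabasal cells (exact binomial 95% interval 24.5 to 38.4, 4 cells left out) had a UMI of any member, against 20.7% of 397 Anal Canal cells (16.8 to 25, 35 left out) and 12.9% of 255 Basal cells (9.08 to 17.7, 2 left out). In normal Rectum, which should lack these genes, it was 0 of 60 cells (3 left out, median depth before thinning 10885 UMIs), so a share as high as 5.0% could have been missed. The 3 stratified clusters thus lay above the Rectum. Of the wounded cells, the share was 23.0% of 564 Basal cells (19.6 to 26.8) and 11.9% of 1020 Suprabasal cells (9.94 to 14.0), against 1.69% of 354 Rectum cells (0.624 to 3.65, 43 left out, median depth before thinning 9991 UMIs). Regeneration (1.01%) and Wound_Stress (0.978%) lay under the Rectum share and are read as background. Among Hybrid cells the share was 5.43% (2.64 to 9.77), with 132 of 316 cells left out. The wounded Basal share lay above the wounded Suprabasal share beyond their intervals, opposite to the order of their summed CPM (181 and 446). Before thinning, 53.2% of wounded Basal and 75.0% of wounded Suprabasal cells held no member UMI. A smaller part of the wounded Suprabasal cells thus held a member, and 10 of them held 48.9% of its member UMIs. For Klk8 the thinned share was 19.1% in normal Suprabasal, 10.6% in normal Anal Canal and normal Basal, 15.1% in wounded Basal and 6.57% in wounded Suprabasal cells, and 46.0%, 26.6%, 22.2%, 31.4% and 18.2% before thinning.

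Klk10 and Klk13 were found in the same Suprabasal cells. Of 183 thinned normal cells, 16 had Klk10, 17 had Klk13 and 12 had both, where the product of both shares gives 1.49 cells (Spearman rho = 0.73). Of 1020 thinned wounded cells, 43 had Klk10, 35 had Klk13 and 26 had both, where the product gives 1.48 (rho = 0.67). Klk7 joined them, and in the wounded cells 16 of its 27 cells also held Klk10 and 14 held Klk13, where the products give 1.14 and 0.926. In the normal cells Klk7 was found in 6 cells, of which 3 held Klk10 and 3 held Klk13, where the products give 0.525 and 0.557. Klk12, in 7 wounded cells, shared 6 with Klk10. Klk10 and Klk13 were thus found together cell by cell, and Klk7 and Klk12 partly with them, in cells of 1 library at equal depth. Klk8 overlapped with other members to a smaller degree than Klk10 and Klk13 did with each other. It shared 9 normal Suprabasal cells with Klk13 (product 3.25), 6 with Klk10 (product 3.06) and 2 with Klk11 (product 1.91). With Klk7 it shared 4 of the 6 Klk7 cells (product 1.15), with Klk12 4 of 5 (product 0.956) and with Klk14 2 of 5 (product 0.956). In wounded Suprabasal cells it shared 13 with Klk10 (product 2.82), 12 with Klk13 (product 2.3), 12 with Klk7 (product 1.77) and 4 with Klk11 (product 1.18). Its highest rho in these clusters was 0.28, with Klk13 in normal cells. In the other stratified cells it shared 3 normal Anal Canal cells (product 1.59) and 5 wounded Basal cells (product 1.81) with Klk11, and 3 (product 2.86) and 5 (product 4.97) with Klk10. Because cells of a cluster can differ in layer, the products are a description and no test was made.

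Cells with several members had more of some differentiation and protease inhibitor genes and less of the basal keratin Krt15. At equal depth, the 19 normal Suprabasal cells with at least 2 members had 228842 CPM of Cst6, 11342 CPM of Slpi and 2763 CPM of Spink5, against 55635, 1048 and 127 CPM in the 126 cells with no member. Krt15 went the other way, with 158 against 500 CPM. By Spearman rho over all 183 thinned cells, Krt1 and Krt10 did not follow Klk10 (-0.06 and -0.04) or Klk13 (-0.006 and 0.003). They did rise with Klk8 (0.30 and 0.20). Krtdap rose with Klk10 and Klk13 (0.29 and 0.36), and the basal keratins Krt5 (-0.25 and -0.29) and Krt14 (-0.28 and -0.28) fell. In wounded Suprabasal cells, the 50 cells with at least 2 members had 203530 CPM of Cst6, 5450 CPM of Slpi and 3010 CPM of Spink5 against 23617, 561 and 189 CPM in the 899 without, and Krt15 stood at 60.0 against 1432 CPM. Of the kallikrein substrates, Cdsn (corneodesmosin) had 8 UMIs in the 50 cells and 3 in the 899, and Flg (filaggrin) 7 and 0. In normal Anal Canal cells other genes went with the members. The 17 cells with at least 2 members had 4176 CPM of Krt1 and 4471 CPM of Krt10, against 1140 and 1179 CPM in the 315 with none, and 735 against 2981 CPM of Krt15, while Spink5 was at 324 against 227 CPM. Wounded Basal cells repeated it, with 4500 against 1547 CPM of Krt1 and 33.3 against 1806 CPM of Krt15 in 15 and 434 cells. Krt14, another basal keratin, was higher in the cells with at least 2 members in both clusters, at 16441 against 10814 CPM in Anal Canal and 9833 against 8075 CPM in wounded Basal cells, so basal keratins did not move as 1 group. Lor (loricrin), a gene of terminal differentiation, had 0 UMIs in the cells with at least 2 members of both clusters. Before thinning, Lor stood at only 5.48 CPM in all normal Anal Canal cells and 5.23 CPM in all wounded Basal cells. At such levels 17 and 15 thinned cells are too few to hold a UMI reliably, so nothing is concluded from the 0 UMIs of Lor.

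When Suprabasal cells were ranked by the share of Cst6 in their UMIs, the members were highest at the top end. In tertiles of the normal cells, all members stood at 329, 83.5 and 3779 CPM from the lowest to the highest, with Cst6 itself left out of the totals. Klk10 stood at 5.89, 1.55 and 1502 CPM, and Klk13 at 10.3, 4.64 and 1271 CPM. Klk8 differed, at 265, 57.2 and 365 CPM, so it was also present in the cells with least Cst6. In the wounded library all members stood at 53.1, 89.4 and 955 CPM, Klk10 at 4.51, 7.05 and 477 CPM, and Klk8 at 45.8, 52.2 and 72.5 CPM. In these wounded cells Klk8 varied less than 2-fold over a range of Cst6 shares from 0 to 49.3%. A tertile is a range and not a cell type. The upper limit lay at a Cst6 share of 6.65% in normal and 1.59% in wounded cells, with 29 and 77 cells within 1.5-fold of it. The clusters found on clustering again gave the same picture for the wounded cells, since Klk10 stood at 352 CPM in the Cst6-high and 2.04 CPM in the Krt15-high Suprabasal cells, and Klk8 at 61.6 and 53.7 CPM.

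**Figure D4:**
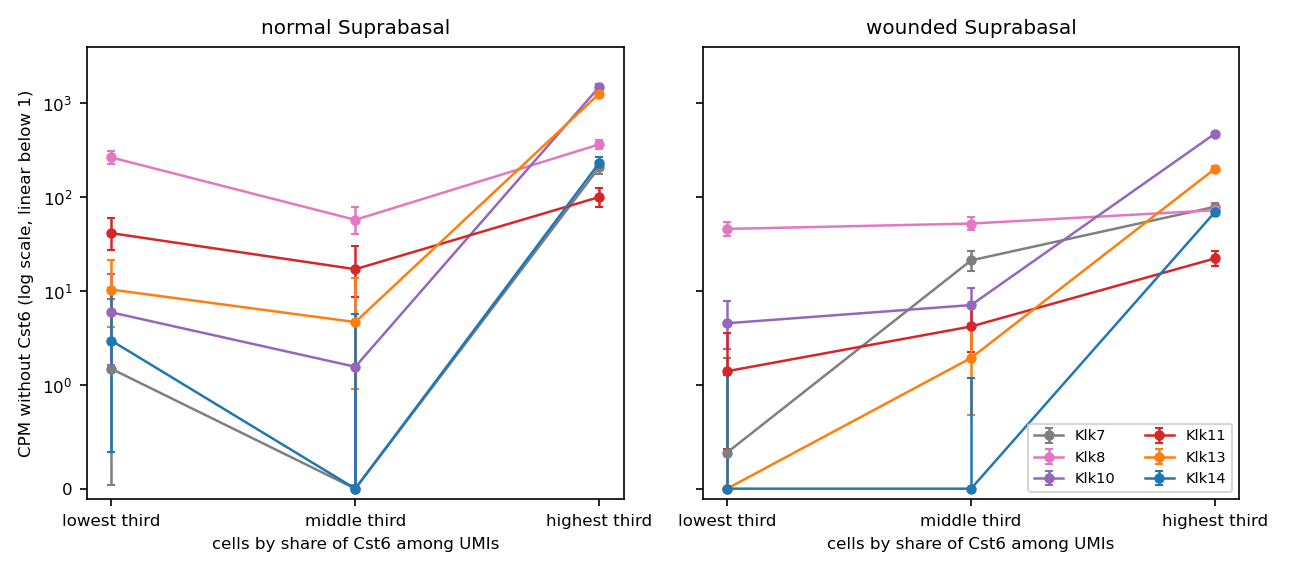
CPM of the members, with Cst6 left out of the totals, in tertiles of Suprabasal cells by the share of Cst6 in their UMIs, on a logarithmic axis with 95% counting intervals. Klk10 and Klk13 stand far higher in the highest tertile of both libraries than in the others, whereas Klk8 is present in all tertiles.

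Genes that work with the kallikreins were followed as lists. Of the kallikrein inhibitors Spink5, Spink6, A2ml1 and Slpi, 2 passed the minimum in normal Suprabasal over Basal cells and both were called higher (6.57% of genes, with 17.1% lower), Spink5 at 7.90 (6.92 to 9.12) and Slpi, secretory leukocyte protease inhibitor, at 3.88 (3.76 to 3.99). Spink5 stood at 708 CPM in normal and 653 CPM in wounded Suprabasal, 250 CPM in normal Anal Canal, 359 CPM in wounded Basal and 2.96 CPM in normal Basal cells. Between wounded and normal Suprabasal cells its log2 ratio was -0.12 (-0.19 to -0.04), while those of Slpi and Klk13 were -1.53 (-1.57 to -1.49) and -2.30. Within the Cst6-high cells alone, Spink5 was higher in wounded than in normal cells, at 1114 against 771 CPM and a log2 ratio of 0.53 (0.45 to 0.61), and Slpi was lower, at 1894 against 3671 CPM and -0.95 (-1.0 to -0.91), neither past 2-fold. The sign for Spink5 thus depended on which Suprabasal cells were compared. Of the 7 substrates and targets, 4 passed in normal Suprabasal over Basal cells (the same background of 6.57% higher and 17.1% lower), where Cdsn, Dsg1a (desmoglein 1) and Dsc1 (desmocollin 1) were called higher and F2rl1, the receptor PAR2, lower at -1.29 (-1.95 to -0.66). In wounded over normal Suprabasal cells, 2 of 6 substrates were called higher (16.2% of genes), Cdsn at 1.02 (0.27 to 1.86) and Flg at 4.40 (1.89 to 9.72, 1 normal UMI), and 0 lower (5.63%). The membrane-anchored proteases St14 (matriptase) and Prss8 (prostasin) and their inhibitors Spint1 and Spint2 had a different distribution, since 4 of 4 were called lower in the stratified cells than in Rectum in both libraries (17.5% of 11406 and 18.4% of 14012 genes), with medians of -1.43 and -1.69.

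Across the 12 groups, the genes whose log2(CPM + 1) was most like each member were taken among 12521 genes. Klk13 was closest to Teddm3 (Pearson r = 0.98), Elf5, an epithelial ETS factor (0.98), and Nkpd1 (0.96), and Klk10 to Klk13 (0.96), Teddm3 (0.95) and Plbd1 (0.95). Klk14 and Klk7 were both closest to Gabrp, a GABA receptor subunit of epithelia (0.98 and 0.96), and Klk12 to Slc26a9, a chloride transporter (0.97). Klk11 had other neighbours, namely Gltp (0.97), Clca2 (0.97) and Anxa1 (0.96), and so had Klk8, with Srcin1 (0.94), Capg (0.94) and Cd68 (0.94). The groups share 2 libraries, and these values are a description over 12 points.

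The cells that passed the filters but were left out of the tables, which the study removed as anal gland, hair follicle and fibroblast cells, had little kallikrein RNA. In the 610 normal cells all members summed to 9.02 CPM and in the 1078 wounded cells to 14.7 CPM. Compared with the cells in the tables, 7 of 7 members tested were called lower in the normal library (9.96% of 12700 genes) and 8 of 10 in the wounded library (11.3% of 15180 genes). The exceptions were Klk5 at -0.45 (-2.01 to 0.84) and Klk9 at 0.72 (-0.60 to 1.92). By the clusters found on clustering again, the 330 normal anal gland-like cells stood at 5.25 CPM, the 185 hair follicle-like cells at 14.0 CPM and the 65 fibroblast and smooth muscle-like cells at 12.7 CPM. In the wounded library the 425 anal gland-like cells stood at 9.36 CPM, with 43 Klk8 UMIs in 30 cells, and 187 fibroblast and smooth muscle-like cells at 5.08 CPM. A single cluster of 103 fibroblast and smooth muscle-like wounded cells stood apart at 72.6 CPM. Its signal was Klk8, with 49 UMIs in 19 cells, at most 7 in a cell and 69.7 CPM (51.6 to 92.2), whereas Klk10 and Klk7 had 1 UMI each. These cells had 12782 CPM of Acta2 and 10273 CPM of Tagln, the smooth muscle actin and transgelin genes, and Klk8 in them was as high as in normal Anal Canal cells (77.4 CPM), with overlapping intervals. In 300 wounded cells of an unnamed cluster, which carried the hair follicle markers Sox9 (1181 UMIs) and Lhx2 (480 UMIs), 20 UMIs of Klk7 came from 1 cell. Endothelial markers were found among the left-out cells too. A set of 25 normal cells with 905 CPM of Cldn5 and 652 CPM of Pecam1 stood at 30.2 CPM of all members, on 5 UMIs. In the wounded library 33 cells with 838 CPM of Pecam1 stood at 10.8 CPM, on 2 UMIs.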

How the data were processed

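Gene by barcode matrices of UMI counts were deposited by the authors for both libraries, with a table of natural log values per cell whose second line gives the cluster names. Per the processing notes, Cell Ranger 3.1.0, mm10 and Seurat 3.2.2 were used, whereas the file headers name Cell Ranger 3.1.0 for the normal and 4.0.0 for the wounded matrix. The matrices list 31054 and 32285 genes, so wounded over normal ratios may rest on different annotations, whose effect was not tested. The counts were the basis of every value, and only the names were taken from the tables. Cells were kept at 200 to 5000 genes and under 25% mitochondrial UMIs. Counts were summed per group, scaled to CPM and given exact Poisson intervals. log2 ratios had exact binomial intervals, shares Clopper-Pearson intervals. Python 3.11.15 (scipy 1.17.1, scanpy 1.11.5 for Scrublet) and R 4.3.3 (Seurat 5.3.0 at resolution 0.2 without the members, edgeR 4.0.16 for TMM) were used. The ratios were tested on simulated data. Members and lists were chosen with earlier results of these data known. All members, the listed partner genes and the 3 genes most like each member of at least 100 UMIs were named.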

Additional observations from a re-analysis of the deposited data

Results flagged for a closer look

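Klk8 and Klk11 differed in direction between the libraries for Suprabasal over Basal cells. The log2 ratio of Klk8 was 1.18 in the normal and -0.85 in the wounded library, and that of Klk11 was 3.0 and -0.61. In the Cst6-high wounded Suprabasal cells alone, chosen after seeing the data, it was -0.73 (-0.91 to -0.54) for Klk8 and 0.05 (-0.35 to 0.46) for Klk11, so the opposite direction did not hold for Klk11 there. The difference was not tested, since each condition was 1 library. The Basal cells of the wounded library carried Krt1 and Krt10 at the level of normal Anal Canal cells, and their part in the difference was not tested.

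Member UMIs were also found in barcodes that failed the filters and enter no comparison. The members summed to 198.0 CPM in 1016 such barcodes of the normal library, and 285 of the 315 UMIs lay in 9 barcodes with more than 5000 genes. In the wounded library they summed to 21.3 CPM in 11991 barcodes, with 112 of 703 UMIs in 87 barcodes over 5000 genes.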

How the results depend on the processing

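Of 272 counts of members past 2-fold under the alternatives, 251 stayed within 1.5 times the reported count, and of 858 log2 ratios 82 moved beyond their interval, 39 of them without the 5 richest cells, and 0 changed sign where called. Of 360 shares of cells 92 moved beyond their interval, all of them under another depth of thinning or none. With a minimum of 1 UMI in place of 20, 1 member was called higher in normal Anal Canal over Basal and Suprabasal cells, 1 lower in wounded Suprabasal over Basal, 1 higher in Regeneration over Wound_Stress, 2 higher in Hybrid over Rectum, 5 higher in wounded over normal Basal, 1 lower in wounded over normal Rectum and 1 lower in normal Suprabasal over Anal Canal. With a minimum of 100 UMIs, 0 were called higher in Hybrid over Rectum, in wounded Suprabasal over normal Anal Canal and Suprabasal, and in wounded Basal over normal Anal Canal. With the mean of per-cell CPM, 2 were called higher in Hybrid over Rectum, 1 higher in wounded over normal Suprabasal and 0 lower in wounded Basal over normal Anal Canal. Without mitochondrial genes and the 20 highest genes in the totals, 1 was called lower in wounded Suprabasal over normal Anal Canal and Suprabasal. Without the 5 richest cells of each cluster, chosen after seeing the data, 5 were called higher in the wounded stratified clusters over Rectum. In the same setting 0 were called higher in Hybrid over Rectum and 1, Klk6, in wounded over normal Suprabasal. Called lower were 1 in wounded Suprabasal over normal Anal Canal and Suprabasal and 2 in wounded Basal over normal Anal Canal. Without the highest Scrublet scores 2 were called lower in that last comparison, and with cells under 10% mitochondrial UMIs 0 higher. TMM scaling moved none of the counts. The minimum changes how many genes enter, and leaving out cells how many cells. Leaving out 5 cells takes a larger share of a small cluster than of a large one. For the other settings the cause was not tested. Klk5, Klk6 and Klk9, with at most 67 UMIs, are limited by depth. No paired analysis was possible because each condition was 1 library.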
